A study of Mus musculus with 6 samples.

Results

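The genes described here encode the O-sulfotransferases of heparan sulfate, a sugar chain carried by proteins of the cell surface and the matrix. They were chosen as a list of 10 genes: Hs3st1, Hs3st2, Hs3st3a1, Hs3st3b1, Hs3st4 and Hs3st5, which add sulfate at the 3-O position, Hs2st1, which adds it at the 2-O position, and Hs6st1, Hs6st2 and Hs6st3, which add it at the 6-O position. All 10 were among the 34289 genes to which the deposited transcripts were summed. RNA was sequenced from postmitotic cortical neurons of E14.5 mice, from embryos with both copies of the repressor gene Rp58 (Rp58+/+, control, 3 libraries) and from embryos with neither copy (Rp58-/-, mutant, 3 libraries). Rp58 is an earlier name of Zbtb18. The labels name no other allele, agent or transgene, and do not say how the neurons were isolated or whether each library is a separate embryo, so the spread between them may be technical in part. Libraries carry numbers by accession only, with no pairing, and values given for a genotype follow the numbers 1, 2 and 3.

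Heparan sulfate is built in the Golgi as a chain of alternating glucosamine and uronic acid, and enzymes then change some of its sugars: part of the glucosamine is N-sulfated, part of the uronic acid is epimerized, and O-sulfates are added last. The 2-O-sulfate sits on the uronic acid, while the 6-O- and the rarer 3-O-sulfate sit on glucosamine. The pattern of these groups sets which growth factors, morphogens and guidance proteins a chain binds, and mice that lack Hs2st1 or Hs6st1 are known for misrouted axons in the developing forebrain.

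Total estimated counts lay between 34645505 and 75892649 a library. By their deposited lengths the libraries fell into 2 types, which the labels do not name and which cross the genotypes unevenly. Control 1, mutant 1 and mutant 2 have a transcript length that exceeds the effective length by exactly 249 bases (fixed-length type), whereas in control 2, control 3 and mutant 3 the excess lay between 133.7 and 139.2 bases (estimated-length type). The small nuclear RNA Rn7sk was between 2.93 and 5.82 CPM (counts relative to the TMM-normalized library size) in the fixed-length type and between 13990 and 19600 CPM in the estimated-length type. The tests below therefore hold a term for library type unless said otherwise, and values within each type are given beside the results. Control 1 is the only control of the fixed-length type and mutant 3 the only mutant of the other. Values within a type thus rest on that single library for its genotype. Zbtb18 measured 1902, 1587 and 1697 CPM in control neurons against 46.7, 45.7 and 538 CPM in mutant neurons, so all mutants lay under all controls but mutant 3 kept more of it. Its log2 fold change was -3.48 ± 0.81 (SE, adjusted p = 0.0337), and the call was lost without control 3 (adjusted p = 0.0511), mutant 1 (0.119) or mutant 2 (0.0899). Results are therefore also given without mutant 3 where that changes a call.

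Markers of cortical excitatory neurons were abundant in all libraries, with a summed level of 7516 to 9966 CPM over 8 genes in the controls and 5431 to 7923 CPM in the mutants, and 5 of the 8 fell while none rose (7 fell and none rose at an unadjusted p under 0.05, and likewise with DESeq2, and 3 fell without mutant 3). The 3 markers of intermediate progenitors, Eomes, Neurog2 and Btg2, all rose (Btg2 not without control 1, adjusted p = 0.0779), from a summed 45.2 to 101 CPM to 178 to 331 CPM. Of 7 radial glia markers 2 rose and 3 fell, with sums of 107 to 237 CPM and 92.0 to 205 CPM. At an unadjusted p under 0.05, 4 of these rose and 3 fell. Without mutant 3, 2 rose and 2 fell, since Vim no longer passed (adjusted p = 0.123). Over all genes tested 7.01% fell and 7.92% rose, DESeq2 called 25.2%, and 8.96% were called without mutant 3. Without the term for library type (2.36% of all genes called), none of the 8 neuron markers was called. In that fit 1 of the 3 progenitor markers rose, and of the radial glia markers 2 rose and 1 fell. Markers of Cajal-Retzius cells summed to 193 to 716 CPM and 227 to 681 CPM, and none of the 3 was called (none at an unadjusted p under 0.05 or with DESeq2 either). Markers of other cells were scarce: the sums over interneuron, endothelial, mural, microglial and meningeal genes were each at most 3.34 CPM in any library, and over erythroid genes at most 9.43 CPM. Of these, Dlx5, Kdr and Cspg4 rose, a set named after its values were seen. Dlx5 passed the filter on low counts through the mutants alone, so its groups had to differ. The call of Kdr was lost without mutant 3 (adjusted p = 0.0618), that of Dlx5 without control 1, control 3 or mutant 1, and that of Cspg4 whichever library was left out (adjusted p from 0.0542 to 0.159). Cdh5 had no count in control 1, Aif1 none in control 2 and C1qa none in controls 1 and 2. The microglial markers that passed the filter, Cx3cr1 and Csf1r, were at 0.159 to 1.09 and 0.213 to 0.986 CPM in the controls. The part of these shifts in the results below was not tested, and in bulk libraries fewer cells of a type and less RNA per cell cannot be told apart.

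In the mutant neurons genes of the 3-O and of the 6-O class moved in both directions, and the 2-O gene was not called. Hs3st2, Hs3st3b1 and Hs3st5 fell to traces and Hs6st2 fell 5.72-fold and 6.31-fold in the 2 library types, whereas Hs3st1 and Hs6st3 rose. Hs6st1 fell by a smaller amount, and Hs3st4 was not called. Of the 10 genes 9 passed the filter on low counts, and 7 of those were called at an adjusted p under 0.05 (quasi-likelihood test of edgeR, Benjamini-Hochberg over 16985 genes), of which 5 fell and 2 rose. Over all genes tested 14.9% were called, 7.01% that fell and 7.92% that rose. The median log2 fold change was -0.60 over the 9 genes and -0.0008 over all genes. Hs3st2 and Hs3st5 passed the filter through the controls alone, so those genes had to differ. Hs3st3b1 passed with a single mutant library above it. The count is therefore a description. The libraries of the genotypes did not overlap for 5 of the 9, where 15.4% of all genes tested showed no overlap. Without the term for library type, 3 were called (Hs3st3b1, Hs3st5 and Hs6st2, all of which fell, where 2.36% of all genes were called). Within the fixed-length type 5 were called (9.46% of all genes) and within the estimated-length type 7 (7.92%), and DESeq2 called 7 (25.2%). Without mutant 3, 5 were called (8.96% of all genes), since Hs3st1 and Hs6st1 no longer passed.

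**Figure D1:**
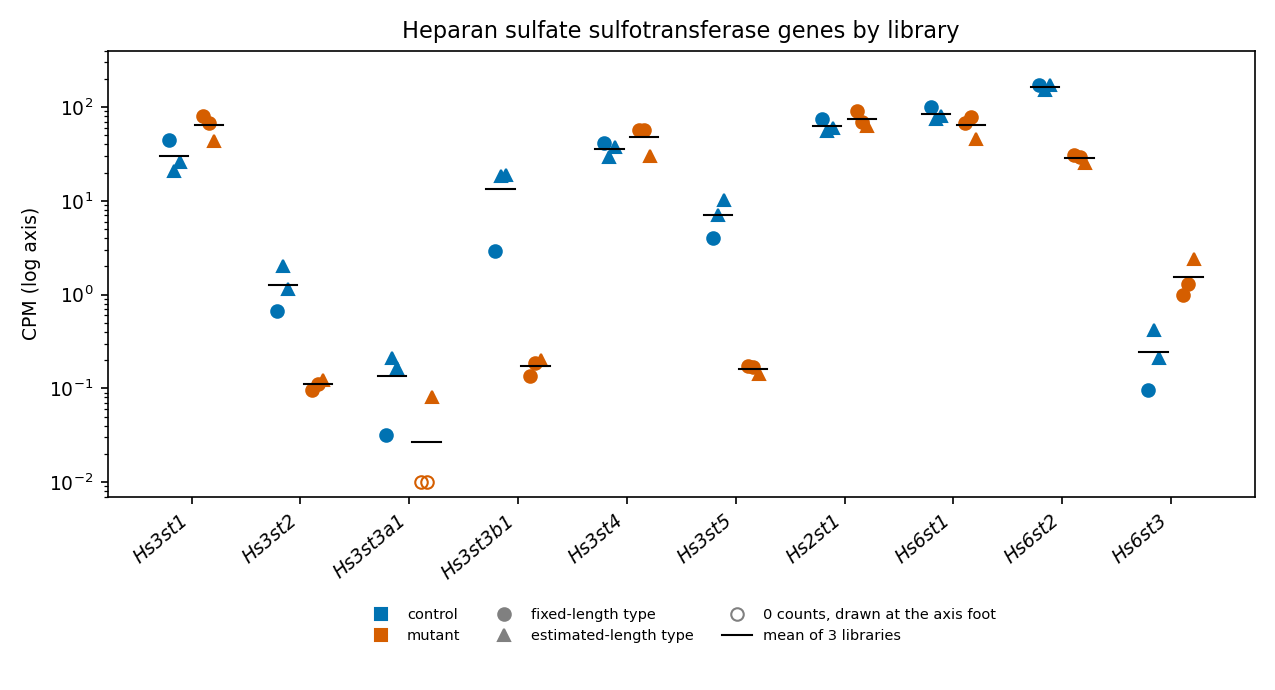
CPM on a log axis for each of the 10 genes in the 6 libraries, controls in blue and mutants in orange, with circles for the fixed-length and triangles for the estimated-length type, bars at the mean of 3 libraries, and open circles for 0 counts. Mutant and control libraries do not overlap for Hs3st2, Hs3st3b1, Hs3st5, Hs6st2 and Hs6st3, of which Hs3st2 and Hs3st5 passed the filter through the controls alone.

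Among the 3-O-sulfotransferase genes, Hs3st3b1 showed the largest change over both library types together, while Hs3st5 fell more within the fixed-length type, without mutant 3 and with limma on log2 TPM. Its enzyme is known for making the chains to which the entry glycoprotein of herpes simplex virus binds. Hs3st3b1 stood at 2.93, 18.4 and 19.0 CPM in the controls and fell to 0.135, 0.187 and 0.203 CPM in the mutants. Control 1, the only control of the fixed-length type, was far under the other two, but all mutants lay far below it. The log2 fold change was -5.05 ± 0.49 (SE, adjusted p = 0.000963), the fourth largest fall of 1191 genes called that way. Within the fixed-length type Hs3st3b1 was 18.2-fold lower (log2 -3.88, adjusted p = 0.00106) and within the estimated-length type 92.2-fold lower (log2 -6.27, adjusted p = 0.000515). The difference of these effects was not called (log2 -2.39, adjusted p = 0.254, unadjusted p = 0.00242).

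Hs3st5, whose enzyme acts broadly and makes both antithrombin-binding and virus-binding chains, fell in parallel. It was at 4.04, 7.13 and 10.1 CPM in the controls and at 0.174, 0.168 and 0.142 CPM in the mutants, a residue of 9, 9 and 7 counts. All mutants were far under the lowest control, but Hs3st5 passed the filter through the controls alone, so the groups had to be apart. Its log2 fold change was -4.84 ± 0.36 (adjusted p = 0.000324), the eighth largest fall, and Hs3st5 was 23.6-fold lower in the fixed-length and 60.9-fold lower in the estimated-length type.

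Hs3st2, a gene known for expression in neurons of the forebrain, was scarcer and also fell. Its levels were 0.668, 2.03 and 1.14 CPM in the controls against 0.0965, 0.112 and 0.122 CPM in the mutants. Hs3st2 passed the filter through the controls alone, so the groups could not overlap. The log2 fold change of Hs3st2 was -2.80 ± 0.40 (adjusted p = 0.00506). It was 6.40-fold lower in the fixed-length type and 13.0-fold lower in the estimated-length type. Without the term for library type the call of Hs3st2 was lost (adjusted p = 0.0661).

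Hs3st3a1, the close relative of Hs3st3b1, was hardly present. It had 1, 14 and 7 counts in the controls and 0, 0 and 4 in the mutants, and it did not pass the filter. A count of 0 in mutants 1 and 2 allows up to 3 counts, or 0.0579 and 0.0561 CPM, from counting error alone. Tested without a filter, it was not called (log2 fold change -0.89, adjusted p = 0.647, where 11.0% of 28791 genes were called). In the annotation's transcripts 12.3% of the 31-base words of Hs3st3a1 also occur in Hs3st3b1, and 9.81% of those of Hs3st3b1 occur in Hs3st3a1. Their estimated counts were fractional in control 2 (13.9 and 1234), control 3 (6.59 and 801.4) and mutant 3 (3.61 and 10.4), and added to 1248, 808 and 14 reads. The split between the pair is thus uncertain, and the sum of both, 93, 1248 and 808 counts in controls against 7, 10 and 14 in mutants, showed the same fall. None of the other members shared more than 1.31% of such words with another.

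Hs3st1 was the 3-O gene that rose. Its enzyme makes the pentasaccharide through which heparan sulfate binds antithrombin. Hs3st1 had 44.8, 20.6 and 25.8 CPM in control and 81.1, 68.5 and 43.7 CPM in mutant neurons. Mutant 3 lay just under control 1, so the groups overlapped. Within each library type every mutant was above every control, where control 1 and mutant 3 each stood alone for their genotype. The log2 fold change was 0.82 ± 0.12 (adjusted p = 0.00595). Hs3st1 was 1.67-fold higher in the fixed-length type (adjusted p = 0.0686) and 1.88-fold higher in the estimated-length type (adjusted p = 0.0340). The call was lost without mutant 3 (adjusted p = 0.0707) and without the term for library type (log2 1.08, adjusted p = 0.380).

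Hs3st4, which like Hs3st2 is known as a gene of neurons, was not called. It was at 41.5, 29.1 and 37.7 CPM in the controls and at 57.3, 56.8 and 30.4 CPM in the mutants. The mutants of the fixed-length type were above all controls, and mutant 3 lay among them. Its log2 fold change was 0.16 ± 0.17 (adjusted p = 0.576), with 0.46 in the fixed-length and -0.14 in the estimated-length type, and the difference of these effects was not called (adjusted p = 0.694).

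The composition of the 3-O class shifted accordingly. TPM, a level per transcript length, was used to compare genes within a library. Hs3st1 and Hs3st4 together held most of the 3-O TPM everywhere. The share of Hs3st1 was 65.5%, 47.1% and 50.5% in control and 74.4%, 72.2% and 77.1% in mutant libraries. Hs3st3b1 and Hs3st5 each fell from a mean share of 7.35% ± 5.35 and 7.75% ± 4.01 (SD, n = 3) to 0.0649% ± 0.0316 and 0.116% ± 0.0224. In controls 2 and 3 Hs3st3b1 held 11.5% and 9.23% of the class, against 1.31% in control 1. Hs3st4 held 28.9% ± 0.48 in controls and 25.2% ± 2.56 in mutants. The summed 3-O TPM was not lower in the mutants: the mutant mean was 1.73 times that of the control in the fixed-length type and 1.12 times in the estimated-length type. These sums and shares were not tested.

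**Figure D2:**
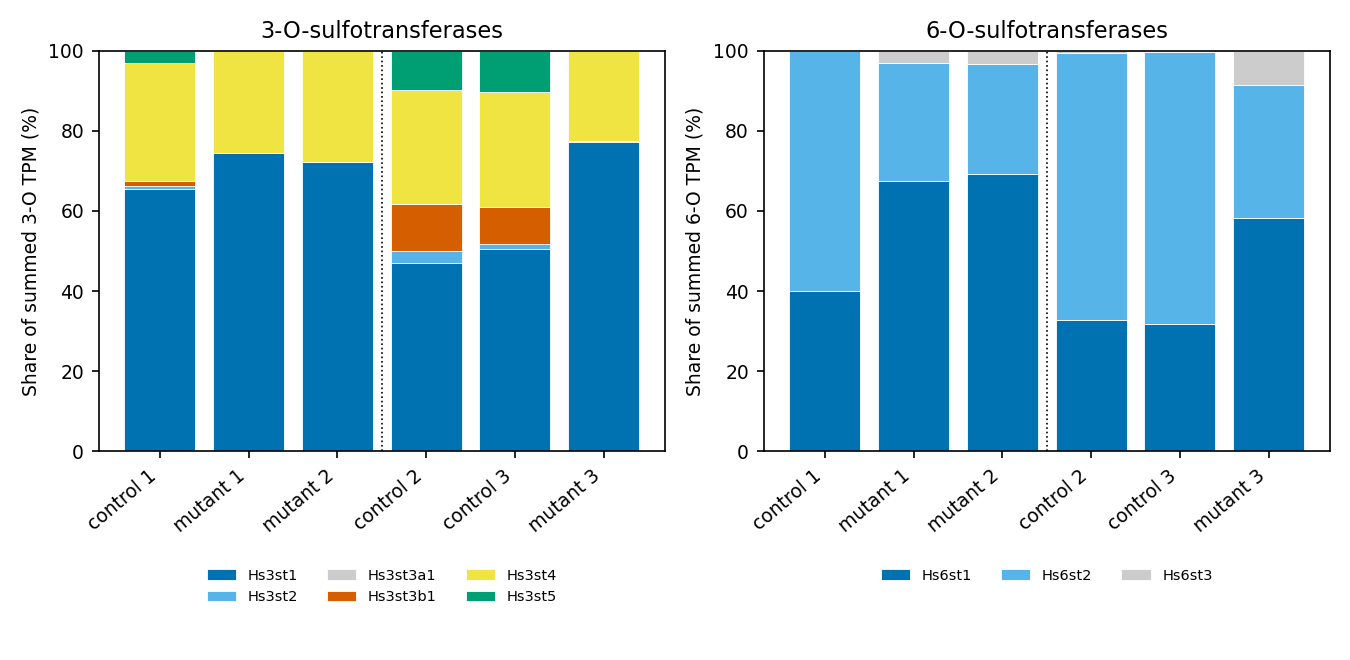
Stacked bars of each gene's share (%) of the summed TPM of the 3-O genes (left) and the 6-O genes (right) in each library, the fixed-length type left and the estimated-length type right of the dotted line. Hs3st3b1 and Hs3st5 are visible in controls alone, and Hs6st2 holds 59.8% to 67.9% of the 6-O class in controls and 27.4% to 33.2% in mutants.

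The promoters of the 3-O genes called as falling, Hs3st3b1, Hs3st5 and Hs3st2, are shown to give their sequence context. RefSeq windows of the GRCm38.p6 build were matched by symbol for all 10 genes, and the 250 bases before the start of transcription are printed 5′ to 3′ on the strand of the gene, with CpG sites in capitals. The windows lie at chr11:63922285-63922534 (minus strand) for Hs3st3b1, chr10:36506557-36506806 (plus strand) for Hs3st5 and chr7:121392046-121392295 (plus strand) for Hs3st2.
Hs3st3b1: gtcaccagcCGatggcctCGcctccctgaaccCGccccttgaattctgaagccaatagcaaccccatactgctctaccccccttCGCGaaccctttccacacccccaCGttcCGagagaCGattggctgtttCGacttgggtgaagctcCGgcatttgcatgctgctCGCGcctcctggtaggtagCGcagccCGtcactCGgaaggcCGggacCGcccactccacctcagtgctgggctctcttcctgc
Hs3st5: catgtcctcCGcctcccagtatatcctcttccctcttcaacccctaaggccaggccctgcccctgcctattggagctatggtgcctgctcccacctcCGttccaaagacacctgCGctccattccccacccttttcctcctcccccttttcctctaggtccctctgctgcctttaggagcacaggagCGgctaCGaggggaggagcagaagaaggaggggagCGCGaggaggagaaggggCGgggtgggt
Hs3st2: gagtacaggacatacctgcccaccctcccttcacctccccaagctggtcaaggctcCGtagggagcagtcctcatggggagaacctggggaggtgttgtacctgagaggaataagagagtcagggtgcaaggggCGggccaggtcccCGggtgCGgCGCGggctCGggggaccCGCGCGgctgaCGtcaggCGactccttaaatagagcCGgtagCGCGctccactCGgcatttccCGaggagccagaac
Hs3st3b1 and Hs3st2 have 17 CpG sites each and Hs3st5 has 8, against a median of 6 over 32851 windows. GC content was 62.4% for Hs3st3b1, 62.0% for Hs3st5 and 64.8% for Hs3st2, above the upper quartile of 61.2% over all windows. The letters ACATCTG, the core of the site that RP58 is known to bind, occur on neither strand in these windows nor in those of the other 7 genes, and 4.3% of 27025 genes have them in a window of that length. That says only that these letters are not in these windows.

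Of the 6-O-sulfotransferases, Hs6st2 fell in all mutants. It was the most abundant gene of the whole group in every control. Hs6st2 had 172, 152 and 171 CPM in control and 30.6, 29.5 and 25.6 CPM in mutant neurons, and the groups were far apart. Its log2 fold change was -2.58 ± 0.09, with the smallest adjusted p of the group (2.48e-05). The fall was 5.72-fold in the fixed-length type and 6.31-fold in the estimated-length type, and the difference of the effects was not called (adjusted p = 0.973). The call was kept without the term for library type (adjusted p = 0.00356) and whichever library was left out (adjusted p from 0.000101 to 0.00066).

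Hs6st1, a 6-O enzyme gene expressed in many tissues, fell by less. It had 99.3, 74.1 and 80.9 CPM in the controls and 67.5, 78.3 and 45.6 CPM in the mutants. The groups overlapped, since mutant 2 was above control 2. Within each type the mutants were lower, again with control 1 and mutant 3 each alone for their genotype. The log2 fold change was -0.60 ± 0.11 (adjusted p = 0.0137), with -0.45 in the fixed-length (adjusted p = 0.113) and -0.76 in the estimated-length type (adjusted p = 0.0307). The call was lost without control 2 (adjusted p = 0.0536), control 3 (0.05004) or mutant 3 (0.123), and without the term for library type (log2 -0.41, adjusted p = 0.915).

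Hs6st3 rose from near absence. It had 3, 28 and 9 counts in the controls, or 0.0954, 0.417 and 0.213 CPM, and 51, 69 and 119 counts in the mutants, or 0.984, 1.29 and 2.41 CPM. Every mutant was above every control. The log2 fold change was 2.87 ± 0.36 (adjusted p = 0.00275), and Hs6st3 was 11.9-fold higher in the fixed-length and 7.65-fold higher in the estimated-length type. The call was lost without the term for library type (log2 2.49, adjusted p = 0.218). The deposited model of Hs6st3 was 1413 bases long against 1708 in the later annotation, so its reads come from a shorter target. Its promoter window, shown beside those above because Hs6st3 moved the opposite way, lies at chr14:119138015-119138264 (GRCm38.p6, plus strand) and has 36 CpG sites, again in capitals, and 76.0% GC.
Hs6st3: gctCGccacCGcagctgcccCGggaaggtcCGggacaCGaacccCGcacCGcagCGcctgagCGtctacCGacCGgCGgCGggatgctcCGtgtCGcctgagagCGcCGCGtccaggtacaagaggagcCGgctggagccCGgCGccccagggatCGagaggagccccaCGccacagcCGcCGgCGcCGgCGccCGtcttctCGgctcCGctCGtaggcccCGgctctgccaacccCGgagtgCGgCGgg
All 11 windows of the 10 genes, Hs6st2 having a pair, had more CpG sites than the median over all windows, from 7 in the second window of Hs6st2, whose GC content was under the median of 52.4%, to 43 in that of Hs3st4.

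The order within the 6-O class turned over. Hs6st2 held 64.8% ± 4.41 (SD, n = 3) of the 6-O TPM in the controls and 30.02% ± 2.93 in the mutants, and Hs6st1 34.9% ± 4.55 and 65.0% ± 5.94. The TPM of Hs6st1 relative to Hs6st2 was 0.671, 0.491 and 0.469 in control and 2.30, 2.52 and 1.75 in mutant libraries. Hs6st1 was thus under Hs6st2 in all controls and above it in all mutants. Hs6st3 went from 0.115%, 0.518% and 0.237% of the class to 2.94%, 3.40% and 8.61%. The summed 6-O TPM of the mutants was 0.489 times that of the control in the fixed-length and 0.315 times in the estimated-length type, the opposite direction to the 3-O sum.

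Hs2st1, which encodes the only 2-O-sulfotransferase of the pathway, was not called. Its levels were 74.7, 55.4 and 60.3 CPM in the controls and 90.7, 69.0 and 62.2 CPM in the mutants, and the groups overlapped. The log2 fold change was 0.10 ± 0.12 (adjusted p = 0.630), with 0.096 and 0.106 within the fixed-length and the estimated-length type. The TPM of Hs2st1 relative to the summed 6-O genes was 0.234, 0.205 and 0.206 in the controls and 0.696, 0.467 and 0.751 in the mutants. The deposited model Hs2st1-201, which held nearly all counts of the gene, was 4780 bases long against 6177 in the later annotation.

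**Figure D3:**
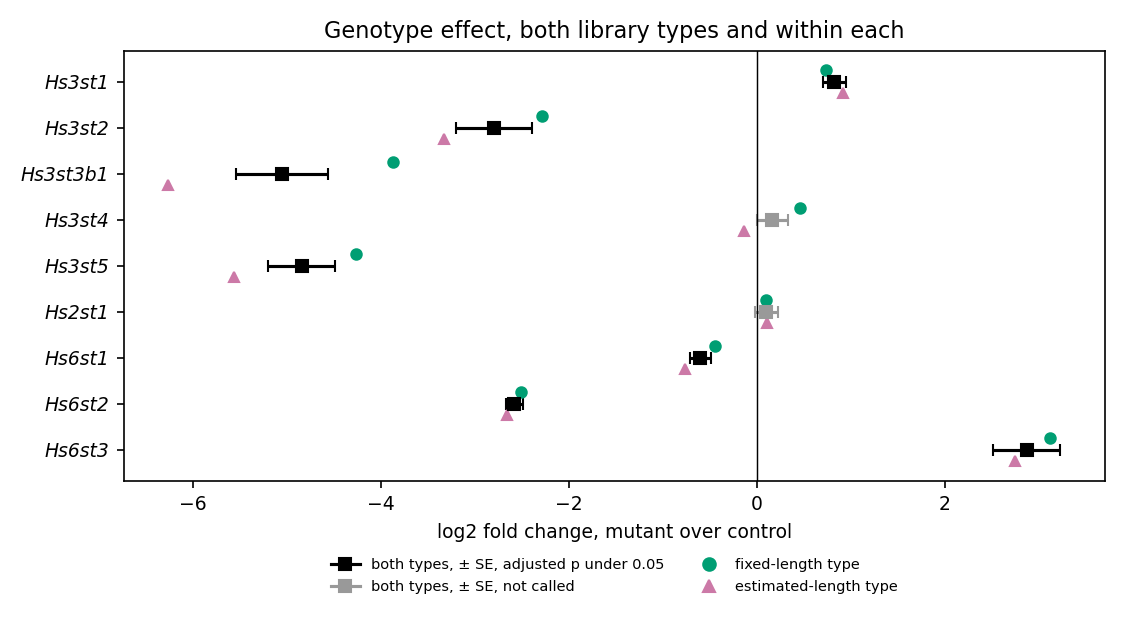
Log2 fold change of mutant over control for the 9 genes tested: squares with bars of 1 SE for both library types together (black where called, grey where not), circles for the fixed-length and triangles for the estimated-length type. Both types lie on the same side of 0 for every gene but Hs3st4 (0.46 and -0.14), and the types lie farthest apart for Hs3st3b1 (-3.88 and -6.27).

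Per length, the order of the 10 genes was close to fixed within a genotype. Hs6st2 ranked highest in all 3 controls, followed by Hs3st1 and Hs6st1, which changed places between control 1 (40.2 and 36.6 TPM) and controls 2 and 3 (5.40 and 7.08, and 6.49 and 6.73 TPM), then by Hs2st1 and Hs3st4. In the mutants Hs3st1 ranked highest in every library and Hs6st2 was in place 5. Hs6st1, Hs2st1 and Hs3st4 filled the places between, in an order that differed among mutant libraries. Hs3st5 and Hs3st3b1 held places 6 and 7 in controls 1 and 3, the reverse in control 2, and places 7 and 9 in mutants. Hs3st2 was in place 8 throughout, and Hs6st3 moved from place 9 to 6. Hs3st3a1 was last in all 6 libraries. TPM values of the 2 library types are not on a common scale, so genes were compared within a library and sums of TPM between genotypes only within a type.

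The same model was fitted to single transcripts, because the estimated counts were deposited per transcript. The 10 genes had 22 transcripts, 16 were tested and 4 were called (1.74% of 42824 transcripts were called, and without the type term none of the 16 and 0.0163% of all). They were the single model of Hs3st3b1, the longest of Hs3st5 and both full-length coding models of Hs6st2. The Hs3st5 model, Hs3st5-201, passed the filter through the controls alone, so it had to differ. Hs6st2-201 fell by 2.44 ± 0.11 and Hs6st2-202 by 2.93 ± 0.19 on the log2 scale (adjusted p = 0.00382 and 0.00663), so both models took part in the fall. Hs6st2-201 held 65.3% to 75.8% of the gene's counts in controls and 73.1% to 80.5% in mutants. The retained-intron model Hs6st2-204 followed library type, with 0.121% of counts in control 1 and 7.01% and 7.14% in controls 2 and 3. It held 0.0691% and 0.214% in mutants 1 and 2 and 8.39% in mutant 3. Hs3st5-201 had 83.3, 173 and 180 estimated counts in the controls and none in any mutant. By estimate, the few mutant reads of Hs3st5 went to Hs3st5-203 (8.61 and 9 counts in mutants 1 and 2) and Hs3st5-202 (7 in mutant 3). With so few reads, which model was lost is not shown. Hs3st1-201 held 80.0% to 99.7% of Hs3st1 counts in controls and 85.5% to 97.8% in mutants.

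Genes whose level ran most like the members with the largest changes were found by the root mean square difference of centred log2 CPM over the 6 libraries, among all genes tested. For Hs3st3b1 they were the planar cell polarity gene Prickle1 (0.511), Hs3st5 (0.638) and the adhesion gene Alcam (0.690). For Hs3st5 they were Alcam (0.256), Prickle1 (0.406) and Mndal (0.584), and for Hs6st3 they were Depdc7 (0.255), Kif19a (0.293) and Galntl6 (0.304). Alcam, the nearest to Hs3st5, was at 179, 275 and 309.6 CPM in the controls and at 6.14, 6.75 and 8.32 CPM in the mutants. With 6 libraries of 2 genotypes, such a list describes a shared pattern across these libraries and nothing more.

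The other genes that build, carry, edit and break down heparan sulfate, and the sulfotransferases of related chains, were read from lists of their roles. Of 58 such genes 54 were tested, and 9 rose and 6 fell, where 7.92% of all genes rose and 7.01% fell. Their median log2 fold change was 0.15 against -0.0008 over all genes. The 15 calls became 5 without control 1 (7.19% of all genes), 6 without control 2 (8.0%), 6 without control 3 (8.21%) and 8 without mutant 3 (8.96%), and 1 without the term for library type (2.36%). In chain initiation and polymerization 1 of 11 rose and none fell (1 fell at an unadjusted p under 0.05, and 1 with DESeq2). That gene was Ext1, a subunit of the chain polymerase, from 44.0 ± 3.58 to 85.6 ± 10.3 CPM (SD, n = 3, log2 1.03 ± 0.08, adjusted p = 0.000399), called also within each type and whichever library was left out. Of the enzymes of N-sulfation and epimerization, which act before the O-sulfotransferases, 1 of 5 tested rose, the N-deacetylase and N-sulfotransferase gene Ndst2 (log2 0.60 ± 0.14, adjusted p = 0.0355). Hs3st6, the remaining 3-O gene, had no count in any control and 1, 1 and 3 in the mutants. Of 2 tested genes of extracellular editing Sulf2, an enzyme that removes 6-O-sulfate from finished chains, fell from 10.4 ± 0.96 to 6.55 ± 0.84 CPM (log2 -0.59 ± 0.16, adjusted p = 0.0486). The calls of Ndst2 and Sulf2 held only when mutant 2 was the library removed. Removing any other gave adjusted p of up to 0.222 for Ndst2 and 0.261 for Sulf2.

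None of 6 genes of the sulfate donor (1 rose at an unadjusted p under 0.05, none with DESeq2) and none of 8 lysosomal genes (1 rose at an unadjusted p under 0.05, 1 with DESeq2) was called. The phosphatase gene Impad1, with the highest mean CPM of the former over the 6 libraries though under Papss1 in the fixed-length type, had 196 ± 7.23 and 177 ± 27.1 CPM in controls and mutants (SD, n = 3). Among the 13 core protein genes 5 rose and 2 fell (3 rose and none fell without mutant 3). Gpc3, a glypican of the cell surface, rose from 0.127, 0.149 and 0.308 CPM in the controls to 39.3, 25.6 and 20.1 CPM in the mutants (log2 6.70 ± 0.37, adjusted p = 0.000108). The transmembrane syndecan gene Sdc3 rose from 294, 193 and 190 CPM in the controls to 750, 720 and 404 CPM in the mutants (log2 1.20 ± 0.09, adjusted p = 0.0004). Agrn, the gene of a matrix proteoglycan, rose from 81.9, 143.5 and 142 CPM to 157, 153 and 205 CPM (log2 0.72 ± 0.11, adjusted p = 0.00624). The other calls, named after their values were seen, were rises of Sdc1 and Sdc4 and falls of Gpc1 and Gpc4. These calls were lost without mutant 3 (adjusted p from 0.0813 to 0.2501). Sdc4 passed the filter through the mutants alone, so its groups had to differ. The counts of rises that include Sdc4 are therefore descriptions. Of the 7 core protein calls 2, those of Gpc3 and Sdc3, were kept whichever library was left out.

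The sulfotransferases of chondroitin, dermatan and keratan sulfate gave 2 rises and 3 falls among 9 tested. Chst1, a keratan sulfate sulfotransferase gene, had 105, 48.9 and 52.1 CPM in the controls and 52.8, 40.01 and 24.6 CPM in the mutants (log2 -1.11 ± 0.12, adjusted p = 0.00173), lower in the mutants within each type. Chst15 rose from 137 ± 1.66 to 200 ± 8.19 CPM (log2 0.52 ± 0.08, adjusted p = 0.00516) and Ust, which acts on uronic acid of chondroitin and dermatan sulfate, fell by 0.76 ± 0.17 on the log2 scale (adjusted p = 0.0273). Chst2 rose and Chst7 fell, both named after their values were seen, and both calls were lost without mutant 3 (adjusted p = 0.165 and 0.194) and held in 1 of the 6 fits that leave out a library. The call of Chst1 was kept whichever library was left out, that of Chst15 was lost without control 1 (adjusted p = 0.0632), and that of Ust was lost without control 1, 2 or 3 or mutant 3 (adjusted p from 0.0782 to 0.182). Of the genes named from these lists, Ext1, Gpc3, Sdc3 and Chst1 were called within each library type. Agrn and Chst15 were called within the fixed-length type and had adjusted p = 0.0530 and 0.0668 within the other. Ndst2 (adjusted p = 0.0873 and 0.246), Sulf2 (0.173 and 0.233) and Ust (0.131 and 0.154) were called within neither.

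**Figure D4:**
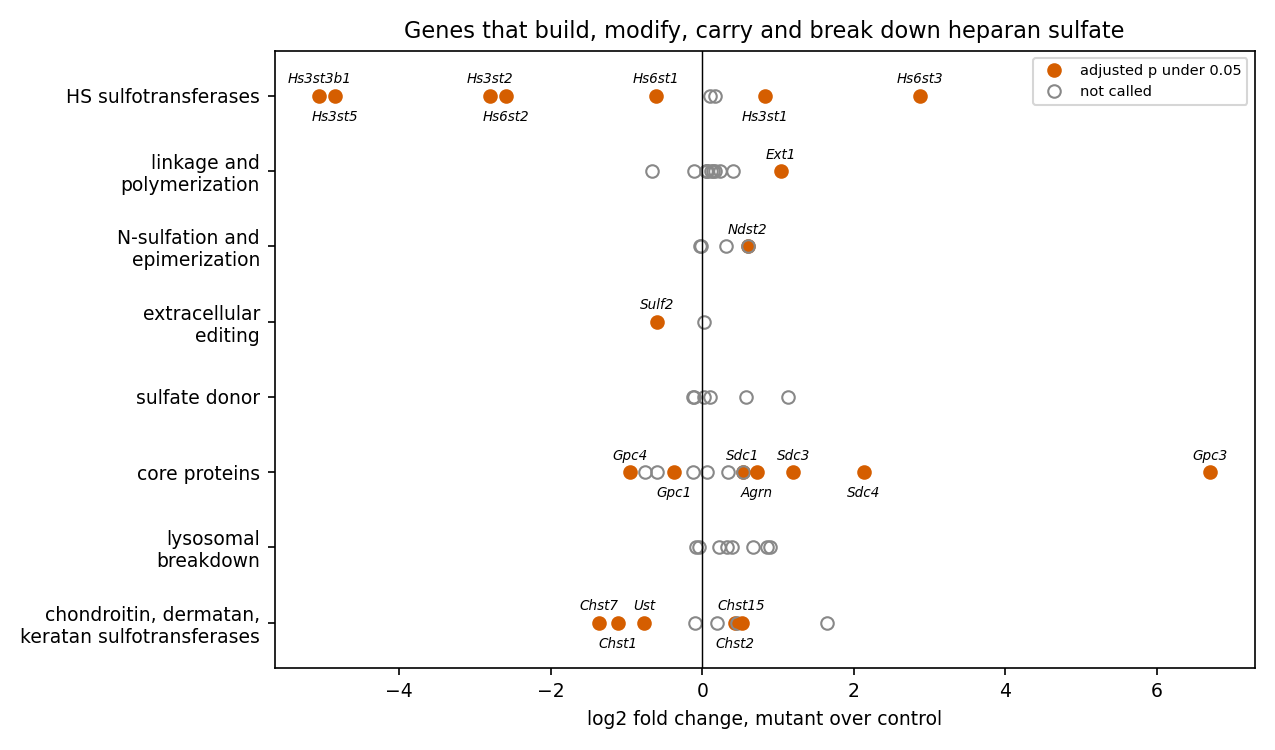
Log2 fold change of mutant over control for the tested genes of each role, filled and labelled where the adjusted p was under 0.05 and open where not. The 5 sulfotransferase genes that fell reach from -0.60 to -5.05, while the falls of the other lists stay between -0.38 and -1.36, and Gpc3 at 6.70 is the largest rise shown.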

How the data were processed

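Each library's deposited table listed 97251 transcripts with a length, an effective length, an estimated count and a TPM value, per the file headers. The authors' estimated counts were made with kallisto, per the submitters' processing notes, which also name FastQC and the mm9 build without versions, and they were deposited without normalization. The deposited TPM values are those counts scaled by effective length and total. Lengths and effective lengths, in bases, were deposited as other per-transcript values. The labels name a stranded total RNA kit, but no source used here gives the strand setting of the counting. Malat1 was at 91.4 to 99.2 CPM in the fixed-length type and at 8803 to 10960 CPM in the estimated-length type. Whether the same kit made both types was not tested. Exons of Hs3st2, Hs3st3a1, Hs3st4 and Hs6st1 overlap a gene on the opposite strand by 276, 1295, 130 and 447 bases, and reads there could belong to either.

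Transcripts were matched to GENCODE vM21 by identifier (87.0%), and the unmatched ones, with 6.85% to 8.58% of counts, were left out. The estimated counts of each gene were added and rounded, then tested with edgeR 4.0.16 in R 4.3.3 (quasi-likelihood, TMM, filterByExpr defaults, prior count 2, terms for library type and genotype). Library type was read from lengths over 2000 bases. The common biological coefficient of variation was 0.186 with that term and 0.701 without it. The SE is the size of the log2 fold change divided by the square root of F. Effects within a type share a pooled spread. Alternatives were no type term, RLE size factors, DESeq2 1.42.0, other filters (including at least 1 CPM in 3 libraries), limma 3.58.1 on log2(TPM + 0.1) and log2(TPM + 1) over the same genes, and leaving out each library. The procedure was tested on simulated data.

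Named were all 10 members, Zbtb18, up to 3 called genes with the smallest p from each of 7 pathway lists or else the most abundant gene, and the 3 genes nearest in pattern to the 3 called members with the largest change. A gene that this rule names is not reported here. Marker lists covered cortical excitatory neurons, radial glia, intermediate progenitors, interneurons, Cajal-Retzius, endothelial, mural, microglial, erythroid and meningeal cells. The members, lists and the main model were chosen with earlier results of these data known.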

Additional observations from a re-analysis of the deposited data

Results flagged for a closer look

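The effect on Zbtb18 differed between the library types. Its log2 fold change was -5.36 in the fixed-length type and -1.61 in the estimated-length type, and the test of the difference gave 3.75 (adjusted p = 0.00963, where 0.153% of all genes were called in that test). Mutant 3 is the only mutant of the estimated-length type, so the library and the type cannot be told apart. None of the 9 sulfotransferase genes tested passed the same test, with 1 at an unadjusted p under 0.05, Hs3st3b1 (unadjusted p = 0.00242, adjusted p = 0.254), and no other tool was run for it.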

How the results depend on the processing

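Of 133 values of the 9 tested sulfotransferase genes under other settings, 119 kept direction and side of the threshold, 12 were no longer called and 2 turned sign. Without the term for library type 400 genes, 3 members, 1 pathway gene and 0 of the 16 member transcripts were called (6 of them at an unadjusted p under 0.05, and no other tool was run on transcripts). That term changes the spread each gene is tested against. All genes called numbered 1606 and 1345 within the fixed-length and the estimated-length type, 4029 with DESeq2, and 1336 and 780 with limma on log2(TPM + 0.1) and log2(TPM + 1). Pathway genes called under those settings numbered 9, 6, 4 and 4 (18 with DESeq2, 15 in the main model). With a library left out the calls were 1294 (without control 1) to 3034 (without mutant 2) for all genes, 5 to 7 for members and 5 to 16 for pathway genes. Hs6st1 was not called with either limma fit (adjusted p = 0.137 and 0.193). Hs3st4, 0.16 in the main model, ranged from -0.115 (without control 1) to 0.459 with a library left out and was -0.135 within the estimated-length type. The cause of these changes was not tested. A filter of 1 CPM in 3 libraries left Hs3st2 and Hs6st3 untested. No paired analysis was possible because the libraries share no replicate number in the labels. Depth limits Hs3st3a1 and Hs3st6, which had at most 14 and 3 counts in a library.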
